A study of Mus musculus with 16 samples.

Results

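Hepcidin (Hamp), its close copy Hamp2 and 8 genes of the bone morphogenetic protein (BMP) and SMAD pathway were followed through 4 mouse tissues. The 10 symbols were Bmp6, Tfr2, Smad9, Smad6, Smad7, Id1, Id3, Atoh8, Hamp and Hamp2, and 9 of them were found among the 24934 symbols of the deposited tables. Atoh8, a transcription factor gene switched on by BMP signalling, was not analysed here. The symbols were chosen by their log2 differences between sunitinib and vehicle in liver, so the liver values of these genes are given as a description without a test. The 3 fat tissues were not used in that choice, and there the genes were tested.

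RNA sequencing had been run on liver, brown fat, epididymal white fat and inguinal white fat of C57BL/6 mice aged 24 weeks. Treatment was either vehicle or Sutent (sunitinib), a drug that blocks several receptor tyrosine kinases, and no dose or duration of treatment is given in the sources used here. Each tissue had 2 vehicle and 2 sunitinib libraries, which makes 16 libraries. The series names 8 mice, 4 per treatment, without tying a library to a mouse or pool, and a p-value therefore reflects how far these libraries scatter, which may be technical. The values are regularized log2 expression (rlog), a scale on which a difference of 1 is a doubling and on which low genes are pulled towards their mean.

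Hepcidin is the liver hormone that lowers plasma iron by blocking and degrading the iron exporter ferroportin. In hepatocytes its gene is driven by BMP ligands from sinusoidal endothelial cells, above all BMP6, which act through BMP receptors and the coreceptor hemojuvelin to phosphorylate SMAD proteins. The SMADs carry SMAD4 to BMP response elements, and the same signal switches on Id1, Id3, Atoh8, Smad6 and Smad7, of which the last 2 encode feedback inhibitors.

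Promoters of the hormone genes and of Smad9 are shown because they hold, or nearly hold, the core of the BMP response element. RefSeq promoter windows of build GRCm38.p6, 250 bases before to 50 bases after a transcription start, were used for 8 of the 10 genes. Id1 and Smad7 were not searched. The sequences shown are parts of these windows. They lie upstream of the first exon at chr7:30944070-30944189 for Hamp, chr7:30924219-30924338 for Hamp2 (both on the minus strand) and chr3:54755519-54755548 for Smad9 (plus strand). Each is written 5′ to 3′, and capitals mark the BMP core hexamer, or the matching stretch of Hamp2, and the STAT site.
Hamp: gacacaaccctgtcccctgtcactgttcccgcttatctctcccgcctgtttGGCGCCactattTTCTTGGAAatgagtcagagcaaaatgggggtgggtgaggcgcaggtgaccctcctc
Hamp2: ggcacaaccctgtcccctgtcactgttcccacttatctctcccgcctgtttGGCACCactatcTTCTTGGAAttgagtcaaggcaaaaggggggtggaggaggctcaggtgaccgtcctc
Smad9: gcacggccgcctGGCGCCcttccagcgcgg
The hexamer GGCGCC, which reads the same on both strands, was found at −109 to −104 from the start of Hamp and at −51 to −46 from that of Smad9. It occurs in 11.9% of the 32851 windows of all genes. At the matching place Hamp2 differs by G4A, counted from 1 at the 5′ end of the hexamer. The STAT-type motif TTCNNNGAA lies at −97 to −89 in Hamp and at −94 to −86 in Hamp2 and occurs in 8.30% of all windows. The E-box CACGTG, held by the windows of Bmp6 and Atoh8, occurs in 7.15%. The short SMAD site GTCT, which can overlap the others, occurs in 88.0%. All motifs were searched on both strands, and a match is a description of letters, not of binding.

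Hamp and Hamp2 are near copies, so their separate values are uncertain. The 250 upstream bases were identical at 227 of 247 aligned positions (91.9%), and the annotated transcripts at 94.6% of 410 aligned positions with an identical run of 87 bases. How the authors' counting treated reads that fit both genes is not given in the sources used here. The annotated antisense gene Gm44662 overlaps both genes on the other strand, and whether strand was used in counting is also not given.

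Libraries of 1 group differed in how alike they were. The SD over all tested genes of the difference between the 2 libraries of a group was 0.12 in each liver group, 0.30 for vehicle and 0.12 for sunitinib in brown fat, 0.15 and 0.26 in epididymal fat, and 0.22 and 0.59 in inguinal fat. The inguinal sunitinib pair was the least alike. Hepatocyte markers (Alb, Ttr, Apoa1 and 4 others) summed to between 20.68 and 20.83 on the log2 scale in liver, and brown adipocyte markers such as Ucp1 to between 16.90 and 17.34 in brown fat. The number of reads per library is unknown.

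In liver the hormone genes, the SMAD transducer Smad9 and the immediate targets Id1 and Id3 stood higher after sunitinib, while the ligand Bmp6 and the receptor Tfr2 overlapped between the groups. Of the 9 genes, 6 were higher in both sunitinib libraries than in both vehicle libraries, 1 was lower and 2 overlapped. Among all 12394 liver genes tested, 18.3% were higher and 19.2% lower without overlap (37.4% in all), and nothing is read from the comparison because this contrast chose the genes. The median difference of the 9 genes was 0.34 beside 0.00 over all liver genes tested.

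Bmp6, the ligand of the pathway, was at 5.22 and 5.27 in vehicle libraries 1 and 2 and at 5.12 and 5.22 in sunitinib libraries 3 and 4. The groups overlapped, and the difference was −0.07 ± 0.06 (SE, n = 2 per group, as for every difference below). Tfr2, a transferrin receptor of hepatocytes that takes part in iron sensing, was at 5.83 and 5.80 in vehicle and at 5.84 and 5.72 in sunitinib libraries. Its groups overlapped too, with a difference of −0.03 ± 0.07. In bulk tissue, fewer cells of a type and less RNA per cell cannot be told apart, which applies to every level here.

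Smad9 encodes a SMAD that BMP receptors phosphorylate. It was at 6.78 and 6.80 in the vehicle livers and at 7.68 and 7.49 in the sunitinib livers. Both sunitinib libraries stood well above both vehicle libraries, by 0.79 ± 0.08 or 1.73-fold on the rlog scale. Smad6, which blocks BMP-activated SMADs, was at 6.35 and 6.44 in vehicle and at 6.22 and 6.35 in sunitinib libraries. The groups touched at 6.35, and the difference was −0.11 ± 0.07. Smad7, the inhibitor of both the BMP and the TGF-beta branch, was at 6.59 and 6.54 in vehicle and at 6.72 and 6.75 in sunitinib libraries. Its groups lay apart by 0.13, with a difference of 0.17 ± 0.07, so the pair of inhibitory SMAD genes had differences of opposite sign.

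Id1 and Id3 encode inhibitors of basic helix-loop-helix transcription factors and are direct BMP-SMAD targets. Id1 was at 7.05 and 7.10 in vehicle and at 7.72 and 7.76 in sunitinib livers. It lay higher in both sunitinib libraries, by 0.67 ± 0.07 or 1.59-fold. Id3 was at 8.71 and 8.76 in vehicle and at 9.27 and 9.39 in sunitinib livers. Here too no library of one group reached the other, and the difference was 0.59 ± 0.08 or 1.51-fold on the rlog scale.

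Hamp was at 11.69 and 11.68 in vehicle and at 12.94 and 12.69 in sunitinib livers. The lower sunitinib library was 1.0 above the higher vehicle library, and the difference of 1.13 ± 0.09 (2.19-fold) was the largest of the 9 genes. Hamp2 was at 11.47 and 11.43 in vehicle and at 11.90 and 11.69 in sunitinib livers. It was higher without overlap by 0.34 ± 0.09, or 1.27-fold. Leaving out 1 library at a time kept Hamp between 1.0 and 1.25, Smad9 between 0.70 and 0.89, Id1 between 0.64 and 0.69, Id3 between 0.53 and 0.65, and Hamp2 between 0.24 and 0.45. Smad7, with a smaller difference, moved little, from 0.14 to 0.19. Smad6 ran from −0.17 without sunitinib replicate 4 to −0.047 without sunitinib replicate 3, and Bmp6 from −0.12 to −0.025 without the same libraries. Tfr2 turned sign, from −0.098 without sunitinib replicate 3 to 0.030 without sunitinib replicate 4. The plot of liver values by library shows the 9 genes on axes of equal height.

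**Figure D1:**
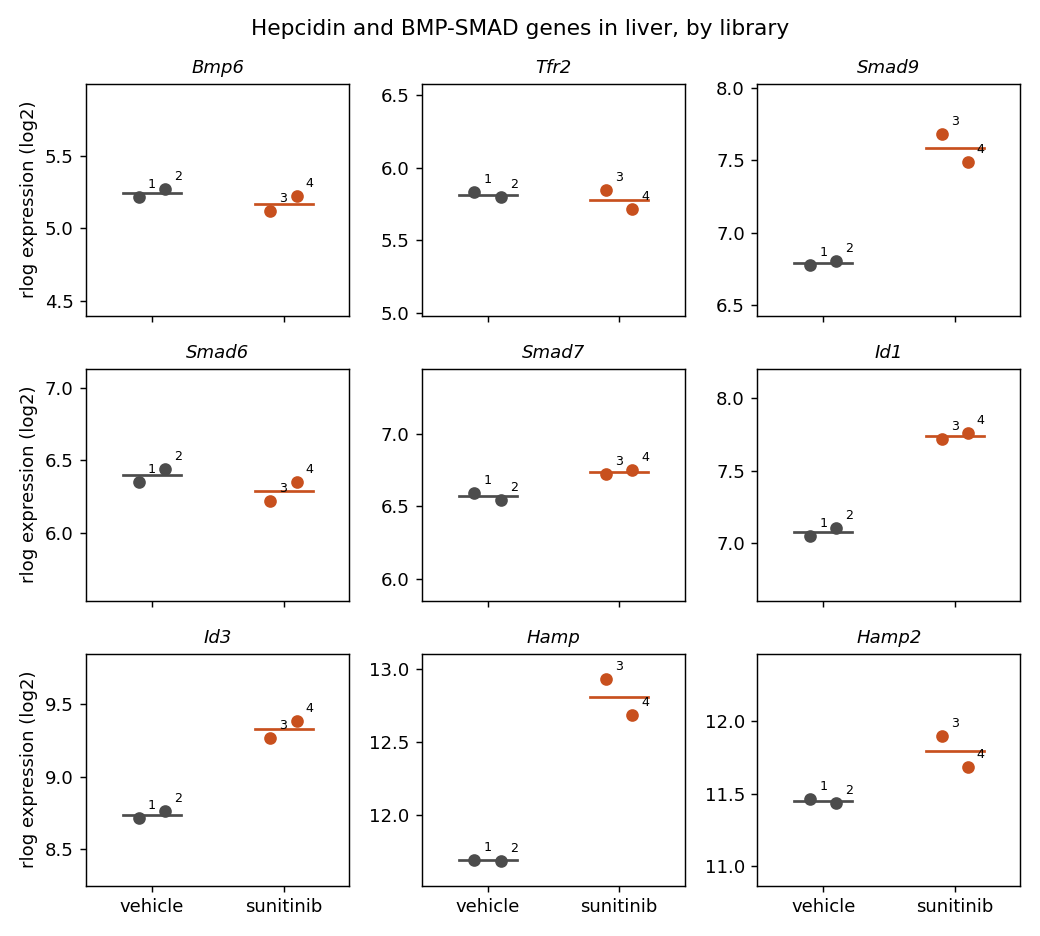
Each panel shows 1 gene in liver, with rlog (log2) level on the y axis over a span of equal height in every panel, 1 numbered point per library and a bar at the group mean of 2 libraries. Hamp, Smad9, Id1 and Id3 are separated by at least 0.51 between the groups, while Bmp6 and Tfr2 overlap.

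Levels across the tissues come from tables normalized separately, so they give an order rather than a measured difference. Hamp was between 11.68 and 12.94 in liver, and between 1.0 and 2.41 in the 3 fat tables, below the mean of 3 needed for testing. Hamp2 was between 11.43 and 11.90 in liver and between 1.66 and 2.66 in fat, also below it. Tfr2 was at 5.72 to 5.84 in liver, at 0.60 to 0.62 in epididymal fat and at −0.91 to −0.90 in brown fat, and was not analysed in inguinal fat. The hormone genes and the receptor gene were therefore high in liver alone among the tables used.

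Bmp6 had the opposite order. In vehicle libraries it was at 5.22 to 5.27 in liver, 7.89 to 8.42 in brown fat, 8.03 in epididymal fat and 7.99 to 8.24 in inguinal fat, so that the 3 fats overlapped and liver lay below them. Id1 and Id3 were also lowest in liver, where Id1 was at 7.05 to 7.10 and Id3 at 8.71 to 8.76. Id1 overlapped between epididymal (8.16 to 8.40) and inguinal fat (8.25 to 8.31) and was highest in brown fat at 9.10 to 9.33. Id3 ran from brown fat (9.46 to 9.55) to inguinal (10.42 to 10.58) and epididymal fat (10.62 to 10.88), the last 2 barely apart. Smad9 was highest in liver at 6.78 to 6.80, then epididymal fat at 4.63 to 4.67, inguinal fat at 3.80 to 4.05 and brown fat at 3.22 to 3.29. Smad6 was at 6.35 to 6.44 in liver, at 6.52 to 6.58 in brown fat and at 7.61 to 7.87 in the white fats, which overlapped. Smad7 was lowest in liver (6.54 to 6.59), overlapped between epididymal and brown fat, and reached 7.11 in inguinal fat.

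**Figure D2:**
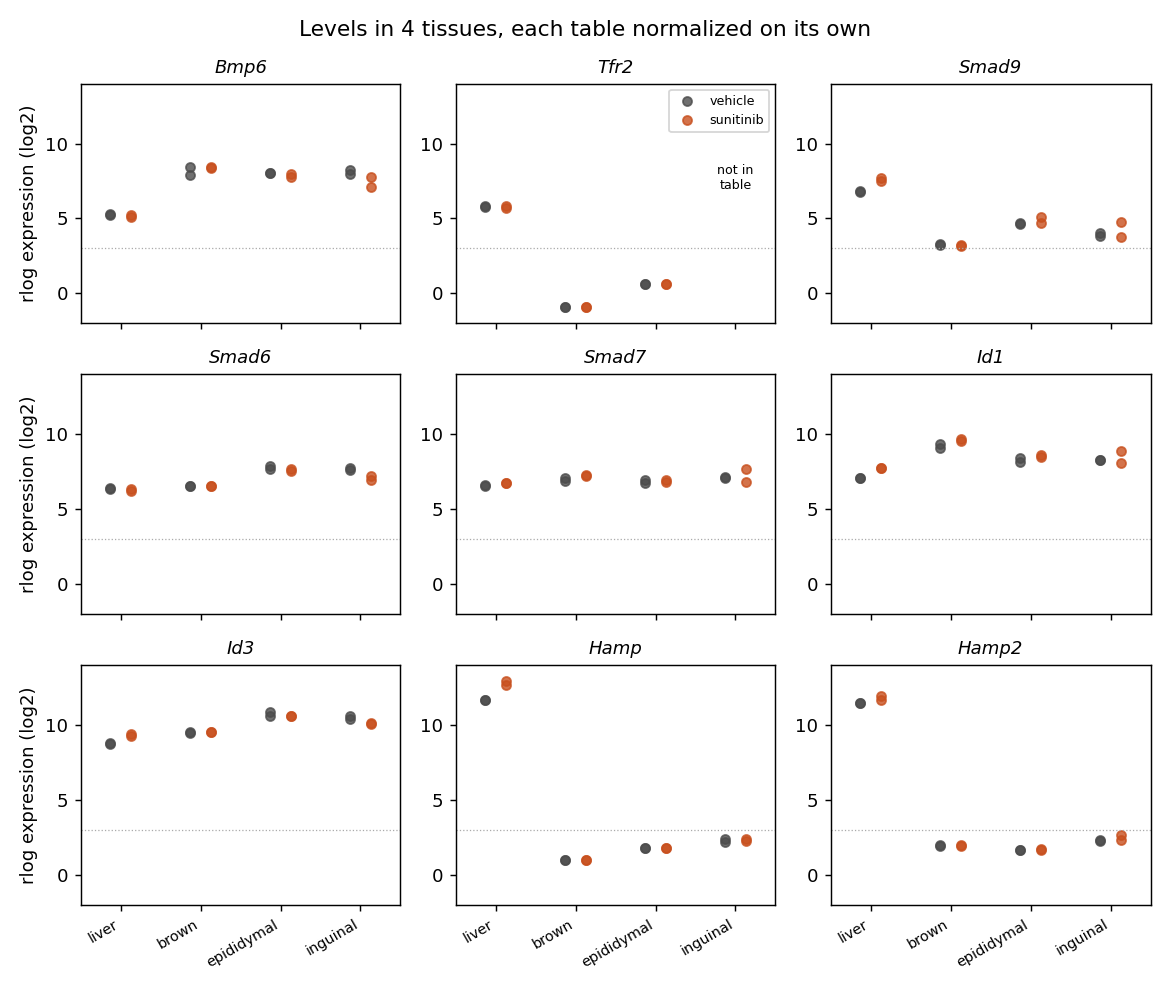
Each panel shows 1 gene in the 4 tissues, with rlog (log2) level on the y axis, 1 point per library and colour for vehicle or sunitinib; the dotted line is the mean of 3 needed for testing. Hamp and Hamp2 are above 11 in liver and below 3 in every fat library, whereas Bmp6 is lowest in liver.

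In brown fat no gene at all passed an adjusted p of 0.05 in limma (0% of 13044 tested, 2101 at unadjusted p below 0.05), and none of the 6 members tested did. Id1 was at 9.33 and 9.10 in vehicle and at 9.69 and 9.57 in sunitinib libraries. It was higher without overlap, by 0.42 ± 0.10 (unadjusted p = 0.00738, adjusted p = 0.228). Smad7 was at 7.08 and 6.87 in vehicle and at 7.25 and 7.21 in sunitinib libraries, a difference of 0.25 ± 0.09 (unadjusted p = 0.0343, adjusted p = 0.277). These were 2 of 6 members higher without overlap beside 26.2% of all genes, and Smad9 was the 1 member lower (24.0% of all genes), by 0.06 ± 0.04 (adjusted p = 0.493). In all, 3 of 6 members and 50.2% of the genes tested did not overlap. Smad6 and Id3 differed by −0.01 ± 0.06 and 0.02 ± 0.06. Without vehicle replicate 1, Bmp6 differed by 0.50, Smad7 by 0.35 and Id1 by 0.53. Without vehicle replicate 2 they differed by −0.03, 0.15 and 0.30. With 1 vehicle library left, the spread within groups comes from the sunitinib pair alone. The vehicle pair also differed in skeletal muscle markers, which summed to 11.27 in replicate 1 and 15.00 in replicate 2 and to 13.25 and 12.66 in the sunitinib libraries. The liver sinusoidal endothelial list, taken as endothelial markers, summed to 12.38 to 12.75 in vehicle and 12.94 to 13.01 in sunitinib libraries. The part of these cells in the result was not tested.

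In epididymal fat 2.34% of 15526 genes tested passed (0.277% higher and 2.06% lower), and none of the 6 members did, with 0 at an unadjusted p below 0.05. Id1 was at 8.16 and 8.40 in vehicle and at 8.60 and 8.46 in sunitinib libraries, higher without overlap by 0.26 ± 0.11 (adjusted p = 0.272). Smad9, at 4.63 and 4.67 in vehicle, was at 5.10 and 4.70 in sunitinib libraries, a difference of 0.25 ± 0.13 (adjusted p = 0.369) carried by replicate 1. Without sunitinib replicate 2 it passed at 0.45 (adjusted p = 0.0105). Bmp6, Smad6 and Id3 were lower without overlap, by 0.17 ± 0.09, 0.19 ± 0.10 and 0.14 ± 0.10 (adjusted p between 0.338 and 0.468). Without overlap, 27.0% of all genes tested were higher and 26.8% lower (53.7% in all), against 2 and 3 of 6 members. Smad7 overlapped, at 0.03 ± 0.09. Beside these, the liver sinusoidal endothelial list summed to 12.73 to 13.04 in vehicle and 12.51 to 12.64 in sunitinib libraries. The 5 epithelial (cholangiocyte) markers such as Krt19 and Epcam summed to 9.56 to 9.93 and 10.72 to 10.93. The part of these cells was not tested.

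In inguinal fat no gene passed in limma (0% of 14916 tested, 1891 at unadjusted p below 0.05), members included. Smad6 was at 7.61 and 7.73 in vehicle and at 6.98 and 7.22 in sunitinib libraries, a difference of −0.57 ± 0.16 (unadjusted p = 0.0201, adjusted p = 0.346). Id3 was at 10.42 and 10.58 in vehicle and at 10.07 and 10.14 in sunitinib libraries, a difference of −0.40 ± 0.10 (unadjusted p = 0.0167, adjusted p = 0.341). Bmp6 was at 8.24 and 7.99 in vehicle and at 7.79 and 7.09 in sunitinib libraries, a difference of −0.68 ± 0.28 (adjusted p = 0.416). These 3 of 6 members were lower without overlap, beside 26.4% of all genes, and none was higher (24.0%), where 50.4% of the genes tested did not overlap in either direction. Smad9, Smad7 and Id1 overlapped because the sunitinib libraries lay on either side of vehicle. Id1 was at 8.87 and 8.11 in sunitinib libraries beside 8.25 and 8.31 in vehicle, and Smad7 at 6.81 and 7.68 beside 7.11 in both.

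With single libraries left out, Smad7, Smad9 and Id1 turned sign in inguinal fat. Bmp6, Smad6 and Id3 stayed negative, and of these Bmp6 moved the most. Without sunitinib replicate 1, Bmp6 differed by −1.03, Smad7 by 0.56, Smad9 by −0.19 and Id1 by −0.17. Without sunitinib replicate 2 the same genes differed by −0.33, −0.31, 0.82 and 0.59. Smad6 was at −0.45 and −0.69 and Id3 at −0.37 and −0.43, in that order. With 1 sunitinib library left, the spread within groups comes from the vehicle pair alone. In 1 limma fit over all 4 tissues, which shares the spread between them, Bmp6 (adjusted p = 0.0382), Smad6 (adjusted p = 0.00388) and Id3 (adjusted p = 0.00967) passed. That fit called 2425 inguinal genes among the 11113 with a mean of at least 3 in all 4 tissues. Sunitinib replicate 2 stood apart in the markers of other cells. Its Kupffer cell list, taken as macrophage markers, summed to 10.70 beside 7.83 to 8.11 in the other 3 libraries. Of that list 5 of 6 genes were found, with Clec4f below the mean of 3. In the same library neutrophil markers summed to 10.01 beside 8.00 to 8.10 and skeletal muscle markers to 12.59 beside 15.68 to 17.47. The part of these cells in the result was not tested.

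The effects were compared between the fats with interaction terms in limma, 18 tests over 6 members. None passed, with 3 at unadjusted p below 0.05. Of all genes, 461 of 12661 passed for brown against epididymal fat and 4 of 12725 for brown against inguinal fat. For epididymal against inguinal fat 0 of 14352 passed. The smallest adjusted p was 0.219, for Id3 in brown minus inguinal fat (0.42 ± 0.11).

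**Figure D3:**
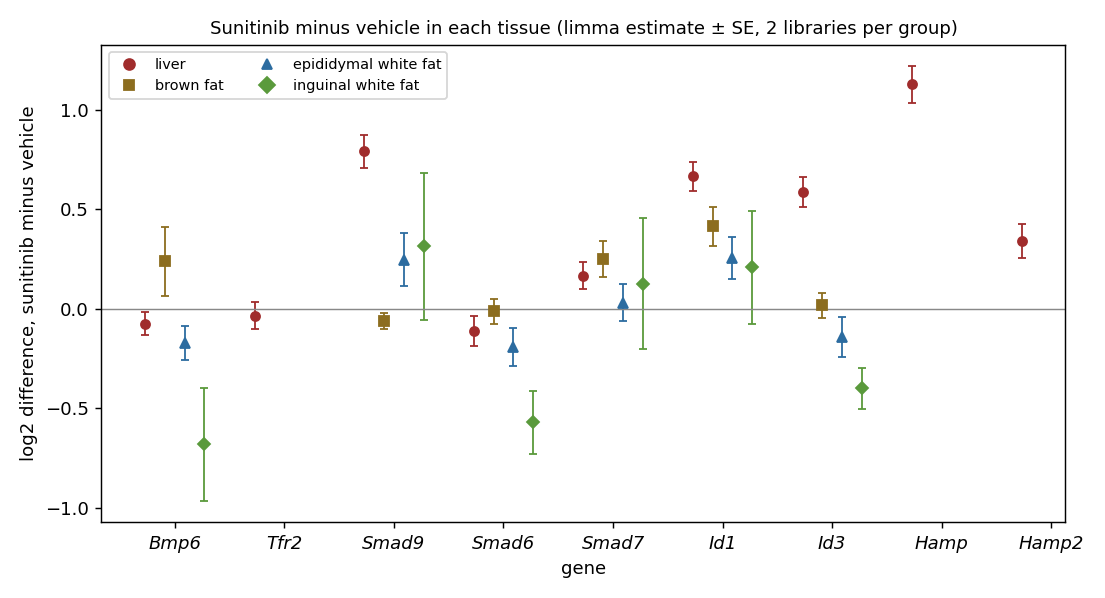
The y axis gives the log2 difference, sunitinib minus vehicle, with its SE, for each gene on the x axis with a mean of at least 3. Each tissue has 1 colour and 2 libraries per group, and the liver values are a description without a test. Hamp, Smad9, Id1 and Id3 lie between 0.59 and 1.13 in liver, while the fat differences lie between −0.68 and 0.42 and none passed the adjusted threshold.

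The rest of the pathway was followed in liver through 9 lists with 95 genes, of which 84 could be tested. None passed in limma (0.194% of all liver genes did, 0.121% higher and 0.0726% lower), with 19 at unadjusted p below 0.05, which is 22.6% of them beside 8.64% of all liver genes tested. Their median difference was −0.00. The smallest adjusted p, 0.0792, belonged to Id2, a further Id gene, at 10.36 and 10.37 in vehicle and 10.76 and 10.80 in sunitinib livers (0.41 ± 0.07). The Id2 difference stayed between 0.39 and 0.43 with 1 library left out.

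Upstream of the SMADs, all 6 BMP ligand genes tested besides Bmp6 had negative differences with a median of −0.14, where 48.6% of all liver genes tested were negative, and 3 were lower without overlap beside 19.2% of all genes. Bmp2, made by sinusoidal endothelium, differed by −0.21 ± 0.08 (adjusted p = 0.521) and Bmp5 by −0.17 ± 0.09 (adjusted p = 0.655). Vehicle libraries moved both. Bmp5 was −0.32 (adjusted p = 0.0122) without vehicle replicate 1 and −0.015 without vehicle replicate 2. Of 10 receptors and coreceptors 7 had positive and 3 negative differences. Eng, an endothelial coreceptor, differed by −0.24 ± 0.07 (adjusted p = 0.355) and Hfe2, which encodes hemojuvelin, by −0.18 ± 0.08 (adjusted p = 0.539). The 5 SMAD transducers other than Smad9 had a median of −0.03, from −0.12 ± 0.07 for Smad2 to 0.13 ± 0.08 for Smad4. Of 11 inhibitors the furthest was Chrd, a secreted BMP antagonist, at 0.21 ± 0.08 (adjusted p = 0.528), and it was 0.32 (adjusted p = 0.0430) without sunitinib replicate 4 and 0.10 without sunitinib replicate 3. Of the 4 other BMP targets tested, Id2 had a positive difference and Nfib, Tgfbr3 and Hey1 had negative ones.

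Genes of the other inputs and of iron handling split in sign. Among 15 genes of IL-6 signalling and the acute phase, 7 had positive and 8 negative differences. The fibrinogen chains Fga (0.36 ± 0.07, adjusted p = 0.132), Fgg (0.31 ± 0.07, adjusted p = 0.192) and Fgb (0.27 ± 0.08, adjusted p = 0.294) were higher without overlap. So was Socs3, a feedback inhibitor of STAT3 (0.27 ± 0.07, adjusted p = 0.240). The list had 4 genes higher and 1 lower without overlap, beside 18.3% and 19.2% of all liver genes tested. Hnf4a, a hepatocyte transcription factor, differed by 0.31 ± 0.09 (adjusted p = 0.357) in a list of 8 with 6 positive differences. It was 0.17 without sunitinib replicate 3 and 0.44 (adjusted p = 0.00251) without sunitinib replicate 4. That last fit also called Fga (adjusted p = 0.00269), Fgg (adjusted p = 0.0227), Fgb (adjusted p = 0.0214) and Steap3 (adjusted p = 0.0366). In the iron list, 10 of 19 genes had positive differences with a median of 0.03. Aco1, an iron sensor that binds mRNA, differed by −0.25 ± 0.07 (adjusted p = 0.309), Steap3, a ferrireductase, by −0.28 ± 0.08 (adjusted p = 0.343), Fth1, the ferritin heavy chain, by −0.21 ± 0.07 (adjusted p = 0.406) and Tfrc, the transferrin receptor, by −0.22 ± 0.09 (adjusted p = 0.508). Of 7 TGF-beta targets 5 had negative differences, the furthest Tgfbi at −0.27 ± 0.08 (adjusted p = 0.341).

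**Figure D4:**
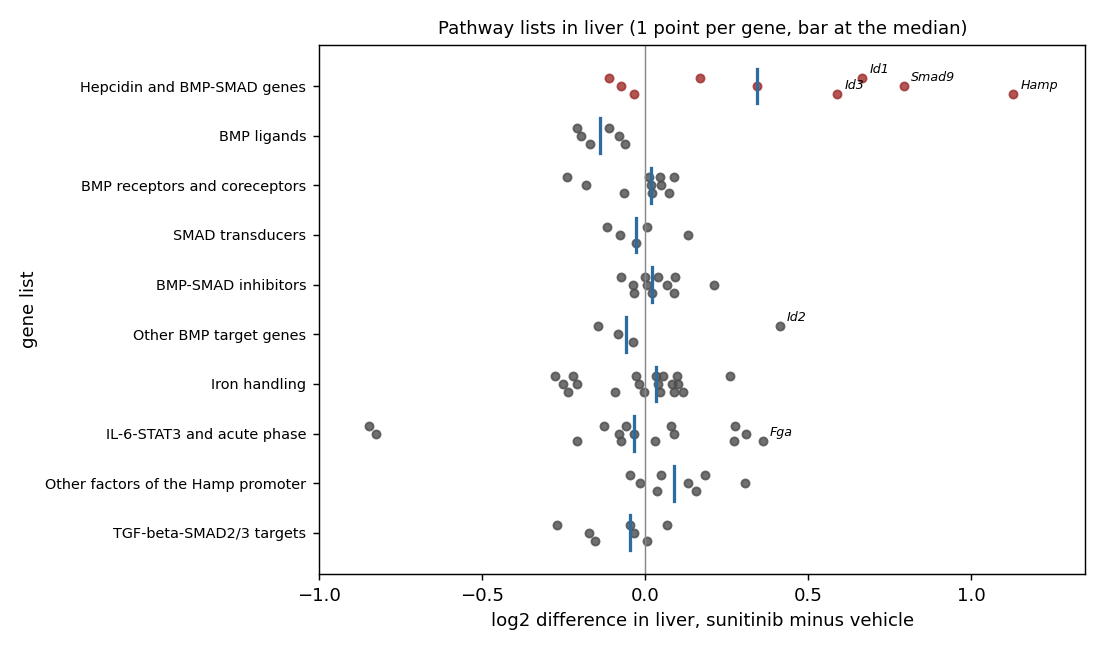
The x axis gives the log2 difference in liver, sunitinib minus vehicle, with 1 point per gene, a row per gene list and a bar at each list's median. The members, chosen by this same difference, have a median of 0.34 and reach 1.13 at Hamp, and the furthest labelled gene of the other lists on the positive side is Id2 at 0.41.

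Markers of other liver cells are given beside these values. The sinusoidal endothelial list, the cells that make BMP ligands, summed to between 10.90 and 11.19 in vehicle and between 10.72 and 10.77 in sunitinib livers, and its 9 tested markers were all negative with a median of −0.17 and none called (4 at unadjusted p below 0.05), while Stab2 was below the tested level. All 6 stellate markers (median −0.19) and all 5 cholangiocyte markers (median −0.01) were negative too, where 48.6% of all liver genes tested were negative. Stellate markers summed to 11.23 to 11.55 and 11.00 to 11.35, and Kupffer cell markers to 10.25 to 10.66 and 10.25 to 10.55. Erythroid markers, of which 2 of 5 were in the table, summed to 12.05 to 12.29 in vehicle and 11.72 to 11.82 in sunitinib livers. Adipocyte markers summed to 8.97 to 8.98 and 9.01 to 9.48, with 5 of 5 positive, none called and 3 at unadjusted p below 0.05. The hepatocyte list summed to 20.81 to 20.83 and 20.68 in both sunitinib livers. Neutrophil markers summed to 6.44 to 6.47 and 6.76 to 6.90, and 3 of 5 passed, where 0.121% of all liver genes tested were called higher. They were S100a8 (0.36 ± 0.05, adjusted p = 0.0298), S100a9 (0.51 ± 0.08, adjusted p = 0.0385) and Ngp (0.35 ± 0.04, adjusted p = 0.0136). No liver gene, these included, passed in 1 fit over the 4 tissues. The part of these cells in the BMP-SMAD values was not tested.

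**Figure D5:**
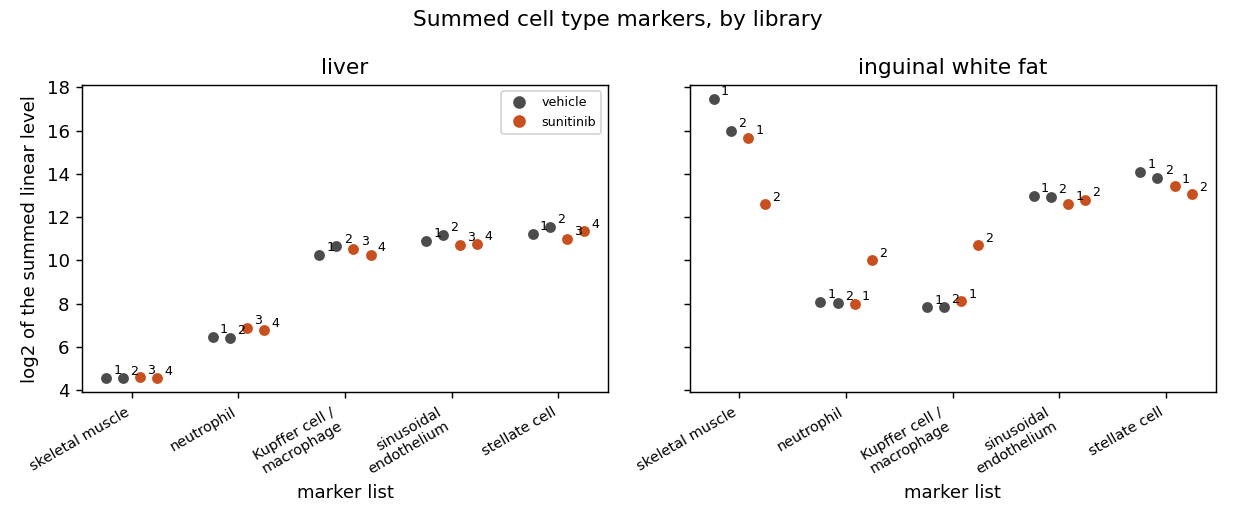
The y axis gives the log2 of the summed linear level of 5 marker lists, with 1 numbered point per library in liver (left) and inguinal fat (right). In liver the sinusoidal endothelial sums of both sunitinib libraries are below both vehicle libraries. In inguinal fat sunitinib replicate 2 has the highest Kupffer cell (macrophage) and neutrophil sums and the lowest muscle sum.

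Likeness to Hamp was measured over the 4 liver libraries as the root mean square difference after each gene was centred on its mean, among 12394 genes. The nearest were Smad9 (0.17), Derl3 (0.18), Slc25a30 (0.19), Creld2 (0.23) and Hyou1 (0.24), beside a root mean square of 0.57 for Hamp about its own mean. Derl3, Creld2 and Hyou1 encode proteins of the endoplasmic reticulum. In these 4 libraries the likeness is mostly the sunitinib difference itself, which was 0.81 ± 0.08 for Derl3, 0.85 ± 0.10 for Creld2 and 0.69 ± 0.08 for Hyou1. Over all 16 libraries, centred within each tissue and among 11113 genes, the nearest to Id1 were Errfi1 (0.15), Slc25a30 (0.16), Smad9 (0.17), Gfod2 (0.17) and Zfp358 (0.17), with 0.26 for Id1 about its own means. Hamp, Smad9 and Id1 were chosen by their liver differences, which enter both rankings, so Smad9 appearing in them is a description only.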

How the data were processed

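Regularized log2 expression per gene and library was deposited by the authors as 1 table per tissue. The submitters' processing notes name the mouse build mm9 and, with no stated roles, DESeq2, bedtools, TopHat2 (2.1.1) and bcl2fastq (2.17.1.14). For strand, annotation and counting, settings are given in no source used here. Shrinkage in these values understates the change and spread of low genes, and depth cannot be read from them. The titles number the sunitinib livers 3 and 4, the description labels 1 and 2.

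Genes with a mean of at least 3 were fitted per tissue with limma 3.58.1 in R 4.3.3 (intensity trend, two-sided, Benjamini-Hochberg over all genes tested, threshold 0.05, 2 residual degrees of freedom), which kept 12394 of 18566 genes in liver, 13044 of 19664 in brown fat, 15526 of 22972 in epididymal fat and 14916 of 22103 in inguinal fat. The fit was tested on simulated data. An exact permutation test of 2 against 2 libraries cannot go below p = 0.333. The members and lists were chosen with earlier results of these data known. Named were all members, listed genes that passed in any tissue, up to 4 listed genes by p in liver, 5 genes nearest to Hamp and to Id1 (predicted and clone names left out), and markers where a list checks a tissue. Not every gene these rules admit is given a value in the text. Alternatives were other filters, normalizations and variance settings, 1 fit over all tissues, a replicate block and each library left out. Sequences were aligned with Biopython 1.88.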

Additional observations from a re-analysis of the deposited data

Results flagged for a closer look

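Smad9 was higher in both sunitinib livers (0.79) and lower in both sunitinib brown fat libraries (−0.061), where the groups lay only 0.0053 apart. Id3 was higher in both sunitinib livers (0.59). It was lower in both sunitinib libraries of epididymal fat (−0.14, groups only 0.0029 apart) and of inguinal fat (−0.40). These pairs were flagged because the libraries of one tissue all lay on one side and those of the other on the opposite side. Groups without overlap were common, at 37.4% of genes tested in liver, 50.2% in brown, 53.7% in epididymal and 50.4% in inguinal fat. The differences from liver were not tested, since liver values chose the genes. Smad9 also had opposite sides in brown fat (−0.061) and epididymal fat (0.25), where the difference of effects was −0.31 ± 0.15 and did not pass in limma (adjusted p = 0.288). Groups of 2 libraries are too small to test for a library far from the others.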

How the results depend on the processing

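With 2 libraries per group, counts of called genes rested on single libraries and on the variance setting. Where 1 library is left out, the spread within groups comes from the other pair alone. In liver 24 genes passed, 3 without the intensity trend, 0 in 1 fit over 4 tissues and 50 to 454 with 1 library left out; the members' median ran from 0.24 to 0.45 and the called genes of the pathway lists from 0 to 10. In brown fat 0 passed, 1 in the fit over 4 tissues and 0 to 1291 with 1 library left out (members 0 to 3). In epididymal fat 363 passed, 210 with no filter, 569 at a mean of at least 5, 584 with a robust variance and 0 to 1123 with 1 library left out (members 0 to 1). In inguinal fat 0 passed, 2425 in the fit over 4 tissues (members 3) and 0 to 4121 with 1 library left out (members 0 to 3). Same-numbered fat libraries had deviations that correlated at −0.26, 0.22 and 0.11 in brown, epididymal and inguinal fat. Such values cannot show whether these libraries share a mouse or batch. With a replicate block 0, 678 and 0 genes passed in that order and 0 members; the crossed pairing in brown fat, chosen after seeing the data, also gave 0. In liver the titles share no number between the groups, but the description labels number both 1 and 2. There the deviations correlated at 0.44, and a replicate block on those numbers, added after seeing the data, called 757 genes and 15 of the pathway lists. The numbers are not stated to mark a shared mouse or batch. Signs turned for Smad7 in epididymal fat with quantile normalization (−0.0375), and with 1 library left out for that gene (−0.0544 to 0.12), for Bmp6 (−0.0251 to 0.50), Smad6 (−0.0415 to 0.0181) and Id3 (−0.0229 to 0.0614) in brown fat, for Smad9 (−0.19 to 0.82), Smad7 (−0.31 to 0.56) and Id1 (−0.17 to 0.59) in inguinal fat, and for Tfr2 (−0.098 to 0.0304), Smad5 (−0.0671 to 0.0083), Skil (−0.0159 to 0.15) and Hey1 (−0.0812 to 0.0089) in liver. Of the other single-gene values under an alternative, 471 changed neither sign nor side of the threshold where one applied, 34 gained and 6 lost a call.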

Other observations

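Most of the 7 listed TGF-beta targets had negative differences in every tissue, with the lowest medians in the white fats. In brown fat 6 of 7 were negative with a median of −0.07, where 51.6% of all genes tested were negative. In liver 5 of 7 were negative with a median of −0.05, where 48.6% of all genes tested were negative. In epididymal fat 6 of 7 TGF-beta targets had negative differences with a median of −0.28, where 46.7% of all genes tested were negative, and Tgfbi, a secreted matrix protein, fell by 0.41 ± 0.06 (adjusted p = 0.0491 in limma). That call was lost with no filter (adjusted p = 0.0848), with median centring (0.0554), in the fit over 4 tissues (0.206), without vehicle replicate 1 (0.288), without vehicle replicate 2 (0.299) and without sunitinib replicate 2 (0.0575). In inguinal fat 5 of 7 were negative with a median of −0.51 and 0 passed, 5 being at unadjusted p below 0.05 beside 12.7% of all genes tested. Of 11 BMP receptors and coreceptors there, 10 had negative differences with a median of −0.28, and none passed, with 4 at unadjusted p below 0.05 beside the same 12.7%. Skeletal muscle markers in inguinal fat, with a median difference of −3.09, summed to 16.01 to 17.47 in vehicle and 12.59 to 15.68 in sunitinib libraries, and the receptor list's furthest gene, Hfe2, was at −2.39 ± 0.90 (adjusted p = 0.396). The Kupffer cell list, taken as macrophage markers, and the neutrophil markers had medians of 1.21 and 1.77, carried by sunitinib replicate 2. The part of these cells in both lists was not tested. The receptor and coreceptor list had 2 of 10 positive differences in brown fat. Over all genes tested the medians were 0.01 in both white fats and −0.00 in brown fat.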
